A study of Rattus norvegicus with 8 samples.

Results

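The 8 arrays of the series fall into 2 sets of 4 that cut across the diets. Set 1 holds replicates 1 and 2 of the rats fed compound 177 and replicates 1 and 2 of the control rats, and set 2 holds replicates 3 and 4 of both. All 8 of the 8 samples belong to 1 of the sets. The sets were read from the authors' deposited normalized table, in which the sorted values are the same on all 4 arrays of a set (largest difference 0) and differ between the sets, so no level of any gene chose them. Each set holds 2 rats of each diet, and set and diet can therefore be separated. The difference described here is set 1 minus set 2 with the diet held constant.

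All animals were Wistar Han rats, and the tissue was skeletal muscle of the thigh, labelled femoris. Compound 177, a sulfonyl isoxazoline, was given in the feed at 150 ppm for 28 days to 4 rats, and 4 control rats ate standard chow for the same time. The series title gives mitochondrial toxicity in muscle as the concern of the study. The labels give no age, sex, chip or scan for any rat, and whether the replicate numbers mark a day, a chip or a litter is not given in the sources used here.

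An Illumina bead array measures a transcript by the brightness of beads that carry a matching probe, and control beads with no target give the background from which a detection p-value is made. A gene near background is therefore read less surely on an array with a brighter or noisier background. Quantile normalization replaces the values of each array, rank by rank, with a common set of values, so arrays normalized in separate runs end with separate sets. Thigh muscle is mostly fibres of fast and slow types, with connective tissue, vessels, nerve and blood between them, and its clock and activity genes vary with the hour and handling of the animal.

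The non-normalized arrays of the sets differed before any normalization. Median intensity over the 22523 probes was 124.7 and 108.2 on the compound 177 arrays and 113.1 and 102.8 on the control arrays of set 1, against 97.5 and 99.1 and 98.6 and 101.2 in set 2. Probes with a detection p below 0.05 numbered 10058 and 9261 on the compound 177 arrays and 10059 and 9634 on the control arrays of set 1. In set 2 they numbered 10572 and 10141 on the compound 177 arrays and 10620 and 10557 on the control arrays. Set 1 thus had a higher median with fewer detected probes, and neither measure overlapped between the sets. Mean intensity did overlap, at 538 to 879 in set 1 and 653 to 678 in set 2. It was lowest on replicate 2 of each diet (558 for compound 177 and 538 for control). The upper quartile overlapped too, at 207 to 282 in set 1 and 204 to 225 in set 2. Set 1 was therefore not brighter by every measure.

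The spread of the background, read back from intensities and detection p-values, was 20.2 to 27.6 in set 1 and 12.1 to 17.8 in set 2, also without overlap. A probe needed an intensity of at least 114 to 133 to be detected in set 1 and 101 to 104 in set 2. Median intensity, detected probes, background spread and lowest detected intensity each gave an exact two-sided permutation p of 0.0286. That is the smallest p that 4 arrays against 4 can give, and it was 0.0429 after Benjamini-Hochberg adjustment over 6 measures. Mean intensity and the upper quartile were not among those tested. The mean background (86.5 to 104 in set 1 and 84.4 to 87.6 in set 2, exact p = 0.0571) and the brightest probe (exact p = 0.714) overlapped between the sets. More arrays of set 1 than of set 2 detected 1060 probes, and more arrays of set 2 detected 2700.

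**Figure D1:**
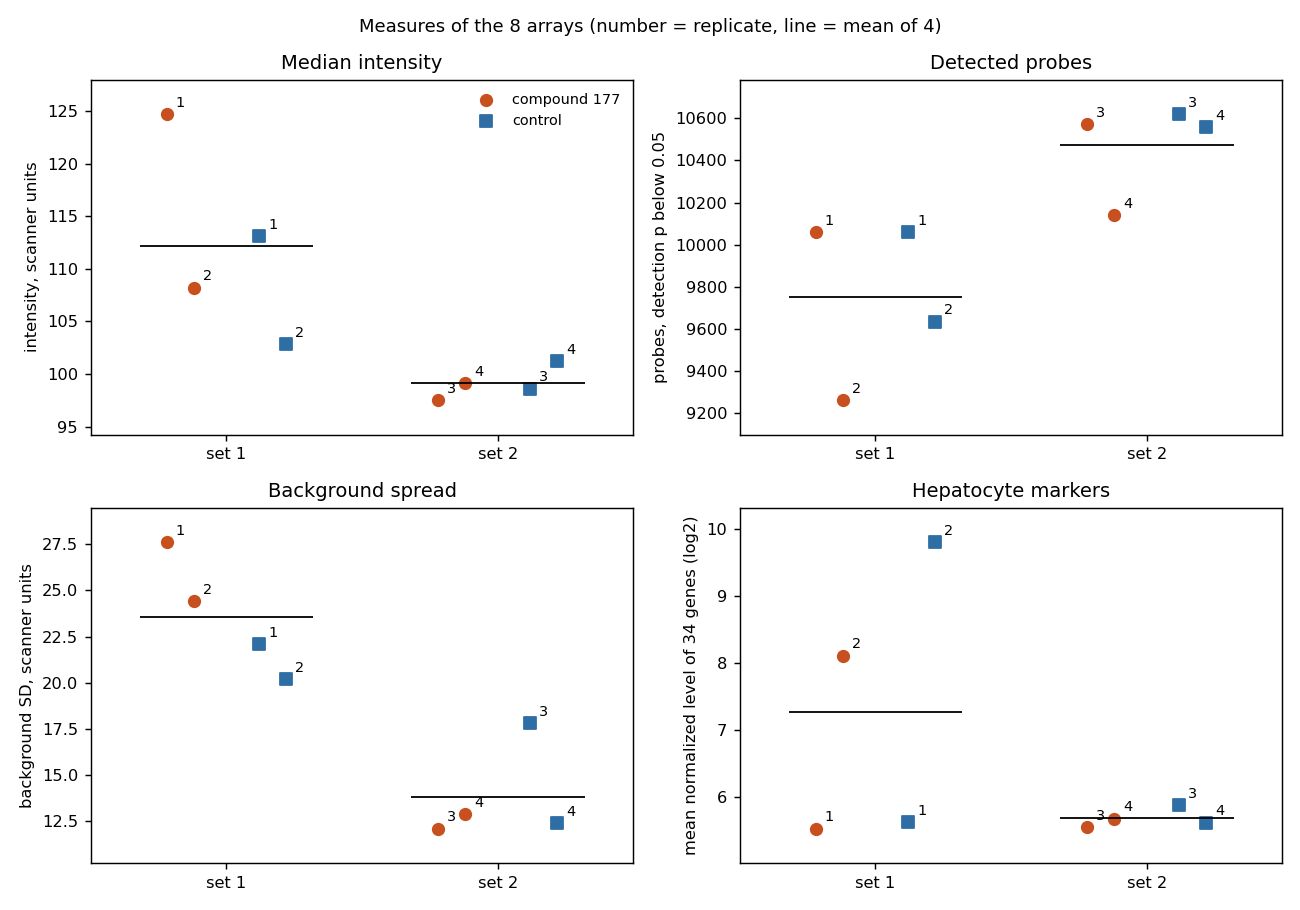
Median intensity, detected probes, background spread and the mean level of 34 hepatocyte markers for each array, with set 1 left of set 2. Circles are compound 177 rats, squares are control rats, the digit is the replicate number and the line is the mean of 4 arrays. The first 3 measures do not overlap between the sets, and the arrays numbered 2 stand above all others in hepatocyte markers.

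In the deposited normalized table the median was 106.4 in set 1 and 103.4 in set 2, and the highest value 45730 in set 1 and 55190 in set 2. Each array kept its own rank order (rank correlation 1.0 with the non-normalized values). The common values of a set were not the mean of its 4 non-normalized arrays: their ratio to that mean had a median of 0.951 in set 1, running from 0.891 to 1.06, and of 1.04 in set 2, running from 0.994 to 1.21. Values multiplied by 48 came to whole thousandths, within a tolerance of 0.058 thousandths, for 74.9% of 2009 values tried in set 1 and 66.7% of 2064 in set 2. With a multiplier of 4 this held for 8.36% in set 1 and 9.21% in set 2. Multipliers of 8, 12, 24 and 36, also tried, gave 14.8% to 39.9% in set 1 and 15.3% to 36.7% in set 2. How the common values of each set were made, and from which arrays, is not given in the sources used here. All differences below were computed from the non-normalized table, normalized over the 8 arrays together.

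Both arrays numbered 2, which lie in set 1, carried transcripts of the liver. This was seen after the values, in a list of 40 hepatocyte markers chosen then, of which 34 are on the array, and it is described here without a test. Alb, albumin, the main secreted protein of the liver, stood at 5.46 and 9.88 on the compound 177 arrays and 5.24 and 12.51 on the control arrays of set 1. Set 2 had 5.29 and 6.07 for Alb on the compound 177 arrays and 6.78 and 6.23 on the control arrays, on the log2 scale of normalized levels. The arrays numbered 2 were far above the other 6, which lay near background.

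Fabp1, the liver fatty acid binding protein, showed the same order, at 6.20 and 9.46 on the compound 177 arrays and 6.15 and 11.37 on the control arrays of set 1, against 5.67 and 6.07 and 6.35 and 5.87 in set 2. Serpina1, the protease inhibitor alpha-1-antitrypsin, was at 8.53 and 10.38 on the compound 177 and control arrays numbered 2, and between 5.20 and 5.66 on the other 6. The mean level of the 34 markers was 8.11 on the compound 177 and 9.80 on the control array numbered 2, and 5.53 and 5.63 on the arrays numbered 1. In set 2 it ran from 5.55 to 5.88. Of the 34 markers, 29 and 31 were detected on the arrays numbered 2, 12 and 16 on those numbered 1, and 17 to 26 in set 2.

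Of the 24 hepatocyte markers tested, 24 had a set difference above 0, with a median of 1.90 against -0.04 over all tested probes, and 0 were called (smallest adjusted p = 0.16 with limma). Without the arrays numbered 2 this median was 0.04, and Alb differed by -0.77 in place of 2.18. Among the 30 named genes with the largest positive set difference, 21 were hepatocyte markers, which made up 24 of the 7299 genes tested. The list was chosen after these values were seen, so that count is a description and no support for a difference. Kidney markers were at background on all arrays, with 0 of 10 detected on any. Of 11 pancreas markers, 1 or 2 were detected on each array, Cpa1 on all 8.

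Of 14 cardiac muscle markers on the array, 10 had a set difference above 0 and 4 below, with a median of 0.20, and 5 were detected on no array. In 3 of them, Myh6, Tnni3 and Tnnt2, the control arrays of set 1 had the highest levels. Myh6, the alpha cardiac myosin heavy chain, was at 8.11 and 8.15 on the compound 177 arrays and 10.15 and 12.22 on the control arrays of set 1, against 7.38 and 5.40 and 6.50 and 8.03 in set 2. Tnni3, cardiac troponin I, was at 5.63 and 5.72 on the compound 177 arrays and 8.21 and 10.45 on the control arrays of set 1, and between 4.99 and 5.31 in set 2, where no array detected it. Both genes were higher on all 4 arrays of set 1 than on any of set 2, Myh6 by 2.83 (SE 0.68, adjusted p = 0.0836 with limma) and Tnni3 by at least 4.51-fold (adjusted p = 0.123 with limma). That bound sets the mean of set 1 against the lowest signal detected on each array of set 2. Tnni3 passed the detection filter only through set 1, where it is high, so its p and lack of overlap are no support for a difference.

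Tnnt2, cardiac and embryonic troponin T, was at 8.09 and 7.67 on the compound 177 arrays and 9.62 and 11.80 on the control arrays of set 1, against 7.66 and 7.28 and 7.81 and 8.19 in set 2. The other tested members were Bmp10, detected on all 8 arrays with a difference of 0.38, and Nppb, a natriuretic peptide, detected on 2 arrays of set 1 and 4 of set 2 with a difference of -0.03. Actc1, Gata4, Tbx5, Tbx20 and Hand2 were detected on 0 of 8 arrays and Nppa, the atrial natriuretic peptide, on 1, while Nkx2-5 and Ryr2 were each detected on 2 arrays of set 1 and 0 of set 2. The cardiac list was also chosen after the values were seen. Without the arrays numbered 2 its median over 5 tested genes was 0.64 in place of 1.56, and Myh6 differed by 2.34.

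The arrays numbered 2 stood apart in other ways too. The fit reported here used no array weights. Those estimated for these arrays were 0.571 for compound 177 and 0.675 for control, against 1.06 to 1.37 for the other 6. The first principal component, with 37% of the variance, placed them at 26.48 and 33.32, the arrays numbered 1 at 1.21 and 0.58, and those of set 2 between -18.52 and -10.72. Values without these arrays are therefore given beside the results they moved most. A fast muscle transcript was high on all 8 arrays, which does not exclude other tissue beside muscle. Myh4, the fast myosin heavy chain, lay between 13.93 and 14.90 in set 1 and between 13.66 and 14.44 in set 2.

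Across the 10212 probes with a detection p below 0.05 on at least 4 of the 8 arrays, differences between the sets were numerous and mostly small. With limma, 3 probes were higher in set 1 (0.0294% of those tested) and 2 lower (0.0196%) at an adjusted p below 0.05, 5 in all (0.049%). Many more lay just above that threshold. At an adjusted p below 0.10, a threshold added after seeing the data, 363 probes were higher (3.55%) and 315 lower (3.08%), 678 in all (6.64%). An unadjusted p below 0.05 was reached by 912 higher (8.93%) and 1257 lower (12.3%), 2169 in all (21.2%), where 511 would be expected with no difference. The 4 values of each set did not overlap for 610 probes higher in set 1 (5.97%) and 831 lower (8.14%), and among the 8137 probes detected on all 8 arrays for 525 higher (6.45%) and 645 lower (7.93%).

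The median set difference was -0.04 and its median size 0.17, a 1.13-fold change, beside a median standard error of 0.14. With median scaling in place of quantile normalization the median of all probes moved to -0.24, and calls turned to 14 higher and 41 lower. With the replicate number as a random block 1 probe was higher and 1 lower, and 440 reached an adjusted p below 0.10. Without both arrays numbered 2, 0 probes were called with limma and 0 reached an adjusted p below 0.10, while 1502 of 9980 tested had an unadjusted p below 0.05.

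The 5 called probes include 2 named genes. Nab1, a corepressor of the EGR family of transcription factors, rose in set 1: it was at 6.12 and 6.38 on the compound 177 arrays and 6.61 and 6.64 on the control arrays of set 1, against 5.23 and 5.47 and 5.70 and 5.43 in set 2. The difference was 0.98 (SE 0.12, adjusted p = 0.0498 with limma), and the sets did not overlap. Ap2a1, an alpha subunit of the AP-2 adaptor that gathers cargo into clathrin-coated vesicles, fell in set 1, with 6.53 and 6.35 on the compound 177 arrays and 6.45 and 6.26 on the control arrays, against 7.41 and 7.65 and 7.17 and 7.20 in set 2. Its difference was -0.96 (SE 0.11, adjusted p = 0.0498 with limma). Nab1 kept a difference of 0.95 and Ap2a1 of -0.88 without the arrays numbered 2, but neither was then called (adjusted p = 0.223 with limma). With the replicate block both had an adjusted p of 0.0585. Over all alternatives Nab1 kept its call in 5 of 17 and Ap2a1 in 7 of 18, with adjusted p between 0.0179 and 0.223 for each.

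The other 3 called probes carry no gene name in the annotation used here, and were singled out after their values were seen. ILMN_1372187 had the smallest adjusted p (0.0381 with limma), at 6.82 and 6.97 on the compound 177 arrays and 6.79 and 6.68 on the control arrays of set 1, against 7.94 and 8.40 and 7.99 and 8.14 in set 2. ILMN_1350303 was bright, at 11.41 ± 0.11 in set 1 and 10.58 ± 0.06 in set 2 (SD, n = 4 each). ILMN_1354259 was detected on 4 arrays of set 1 and 0 of set 2, and was at least 1.5-fold higher in set 1. It passed the detection filter only through set 1, where it is high, so its place among the 3 probes called higher is no support for a difference.

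The 12 named genes with the smallest p among those higher in set 1 were Nab1 and 11 that did not pass, at adjusted p of 0.0605 to 0.0676 with limma. Bicd2, an adaptor between dynein and its cargo, was among the tightest, at 11.75 and 11.74 on the compound 177 arrays and 11.78 and 11.76 on the control arrays of set 1, against 11.09 and 11.20 and 11.15 and 11.04 in set 2. All 4 arrays of set 1 lay close together and above all of set 2. Htr2a, a serotonin receptor, had the largest difference of the 12, at 1.25 (SE 0.21), with 6.98 ± 0.40 in set 1 and 5.73 ± 0.25 in set 2 (SD, n = 4 each).

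Among the others, Slc24a4, a potassium-dependent sodium-calcium exchanger, averaged 8.60 ± 0.19 in set 1 and 7.55 ± 0.32 in set 2. Slc30a2, a zinc transporter, averaged 8.47 ± 0.09 in set 1 and 7.60 ± 0.24 in set 2. Npl, the lyase that splits sialic acid, differed by 0.94 (SE 0.14), Zyx, the focal adhesion protein zyxin, by 0.83 (SE 0.14), Mrps10, a subunit of the mitochondrial ribosome, by 0.78 (SE 0.12) and Slc35g2 by 0.59 (SE 0.11). Dmrt1, known as a testis transcription factor, differed by 0.58 (SE 0.10) near background, and was detected on 4 arrays of set 1 and 1 of set 2. It passed the detection filter through set 1, where it is high, so its p and lack of overlap are no support for a difference. The remaining members, Or14j5 and Or1o11, are olfactory receptor genes.

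Among genes lower in set 1, Trim55, a muscle RING-finger ubiquitin ligase of the sarcomere, was at 7.75 and 7.29 on the compound 177 arrays and 7.64 and 7.59 on the control arrays of set 1, against 8.51 and 8.81 and 8.36 and 8.72 in set 2. It differed by -1.03 (SE 0.15, adjusted p = 0.0605 with limma), with no overlap. Phospho1, a phosphatase of phosphocholine and phosphoethanolamine, averaged 10.32 ± 0.16 in set 1 and 11.31 ± 0.24 in set 2 (SD, n = 4 each). Polrmt, the RNA polymerase of mitochondria, averaged 8.20 ± 0.16 in set 1 and 8.92 ± 0.02 in set 2. Eif4ebp2, a repressor of cap-dependent translation, differed by -0.87 (SE 0.14).

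Bmi1, a Polycomb subunit, differed by -0.95 (SE 0.14), Irf7, an interferon regulatory factor, by -0.95 (SE 0.16), Zcchc8, a nuclear RNA surveillance factor, by -0.70 (SE 0.10) and Tcea2, an elongation factor of RNA polymerase II, by -0.65 (SE 0.10). Irf7 was detected on 1 of 4 arrays of set 1 and Bmi1 on 2, so these sizes are uncertain. Irf7 passed the detection filter through set 2, where it is high, so its p and lack of overlap are no support for a difference. Clcn3, a chloride-proton exchanger, differed by -0.80, Mlf2 by -0.84 and Calcoco1 by -0.67. All 24 genes had 4 values in set 1 that did not overlap the 4 of set 2.

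**Figure D2:**
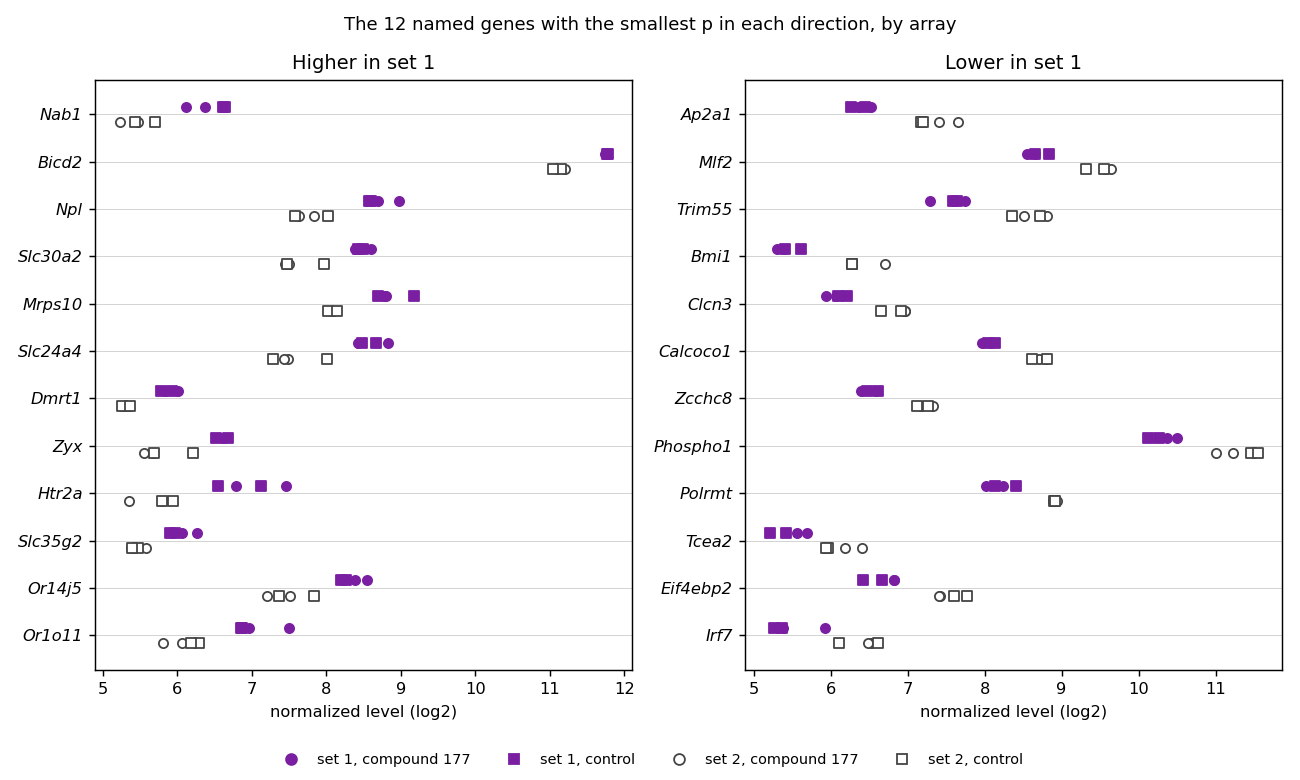
Normalized levels (log2) on each array for the 12 named genes with the smallest p in each direction, genes higher in set 1 on the left. Filled symbols are set 1 and open symbols set 2, with circles for compound 177 and squares for control. Filled and open symbols do not overlap for any of the 24 genes, which were picked by that comparison.

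These 24 genes were chosen by their p, so their separation is a description. Without the arrays numbered 2, 23 of them could be tested, with 23 of 23 in the same direction and 0.792 to 1.02 times the difference reported, at adjusted p of 0.223 to 0.239. Dmrt1 did not pass the detection filter there. Each of the 24 was called under at least 1 other setting, and 0 under every one.

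Probes for receptors of smell and taste lay above the other probes in set difference. The array carries 1310 probes named for olfactory, vomeronasal, taste or trace amine receptors, which are known mainly from sensory epithelia, and 83 of them passed the detection filter, 6.34% against 45.3% of all probes. This group was chosen after the values were seen and is described without a test. Of the 83, 68 were above 0 and 15 below, with a median of 0.25 against -0.04 over all tested probes. At an adjusted p below 0.10, 15 were higher and 0 lower, beside 3.55% and 3.08% of all probes, and 0 were called at 0.05. The 2771 tested probes without a gene name also tilted upward at this threshold, with 158 higher and 75 lower, though their median was -0.01. All named probes had 205 higher and 240 lower.

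Or5aq7b was at 8.21 and 8.96 on the compound 177 arrays and 8.07 and 8.76 on the control arrays of set 1, against 7.17 and 7.40 and 7.73 and 7.04 in set 2. Tas2r7l, a bitter taste receptor, was at 8.22 and 8.66 on the compound 177 arrays and 8.08 and 7.98 on the control arrays of set 1, against 6.90 and 7.16 and 7.68 and 7.17 in set 2. Vom2r59, a vomeronasal receptor, differed by 0.94 (SE 0.19) and Or14j5 by 0.87 (SE 0.16). In none of these 4 did the sets overlap. Over all 1310 probes the median was 0.02, and 1119 were detected on no array. Background spread was also larger in set 1, as given above, and its part in this shift was not tested. Without the arrays numbered 2 the median of the group was 0.14.

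Pathways and cell types were then read in gene lists, described by their counts and medians. Of 45 lists, 39 had at least 5 measured genes, and 0 members of these lists were called in the set difference with limma (0.049% of all probes). The lowest median was that of the TCA cycle, the mitochondrial ring that oxidizes acetyl groups. It had 15 of 16 members below 0 and a median of -0.20, against -0.04 over all tested probes, of which 56.3% were below 0. Cs, citrate synthase, was at 9.50 and 9.90 on the compound 177 arrays and 9.19 and 9.25 on the control arrays of set 1, against 9.84 and 9.88 and 9.79 and 10.01 in set 2, a difference of -0.42 (SE 0.15, adjusted p = 0.154 with limma).

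In the same list Mdh2, mitochondrial malate dehydrogenase, averaged 14.30 ± 0.11 in set 1 and 14.53 ± 0.01 in set 2 (SD, n = 4 each). Dld, the shared E3 subunit of the 2-oxoacid dehydrogenases, averaged 11.38 ± 0.23 in set 1 and 11.71 ± 0.08 in set 2. Both had no overlap between the sets, as did 3 of 16 members in all, beside 8.14% of all probes. An unadjusted p below 0.05 was reached by 0 members higher and 5 lower, beside 8.93% and 12.3% of all probes. The TCA median was -0.12 in compound 177 rats and -0.23 in control rats, and -0.22 without the arrays numbered 2.

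Glycolysis and glycogen had 16 of 19 members below 0 and a median of -0.12, with Gapdh at 0.24 and Pkm, pyruvate kinase, at -0.33. PPAR and PGC-1 regulators had 15 of 18 below 0 and a median of -0.14, with 6 of 18 at an unadjusted p below 0.05 and lower, beside 12.3% of all probes. Ppard, the PPAR form common in muscle, differed by -0.55 (SE 0.13). It was detected on 2 of 4 arrays of set 1, so this size is uncertain. Dnm1l, the mitochondrial fission GTPase, differed by -0.43 (SE 0.15) and Mfn1, a fusion GTPase, by -0.36 (SE 0.12). Respiratory complex I had 14 of 26 below 0 and a median of -0.01, and complexes II to V a median of -0.02. With median scaling the TCA cycle and glycolysis had the same median, -0.53, beside -0.44 for complexes II to V and -0.24 for all probes, so the place of the TCA cycle below glycolysis rests on quantile normalization.

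Hypoxia-inducible genes had 12 of 14 members below 0 and a median of -0.18. Bnip3, a mitophagy receptor, averaged 13.70 ± 0.20 in set 1 and 13.99 ± 0.09 in set 2, and Pdk1, a kinase of pyruvate dehydrogenase, differed by -0.28. Ero1a, an oxidase of the endoplasmic reticulum, was detected on 0 of 4 arrays of set 1 and 4 of 4 of set 2. It was at least 1.08-fold lower in set 1 (adjusted p = 0.118 with limma). It passed the detection filter only through set 2, where it is high, so its p is no support for a difference. At an unadjusted p below 0.05, 2 members were lower, Ero1a among them, and 0 higher, beside 12.3% and 8.93% of all probes. The list median ran from -0.10 to -0.22 with single arrays left out and was -0.11 without the arrays numbered 2, where Bnip3 differed by -0.15.

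**Figure D3:**
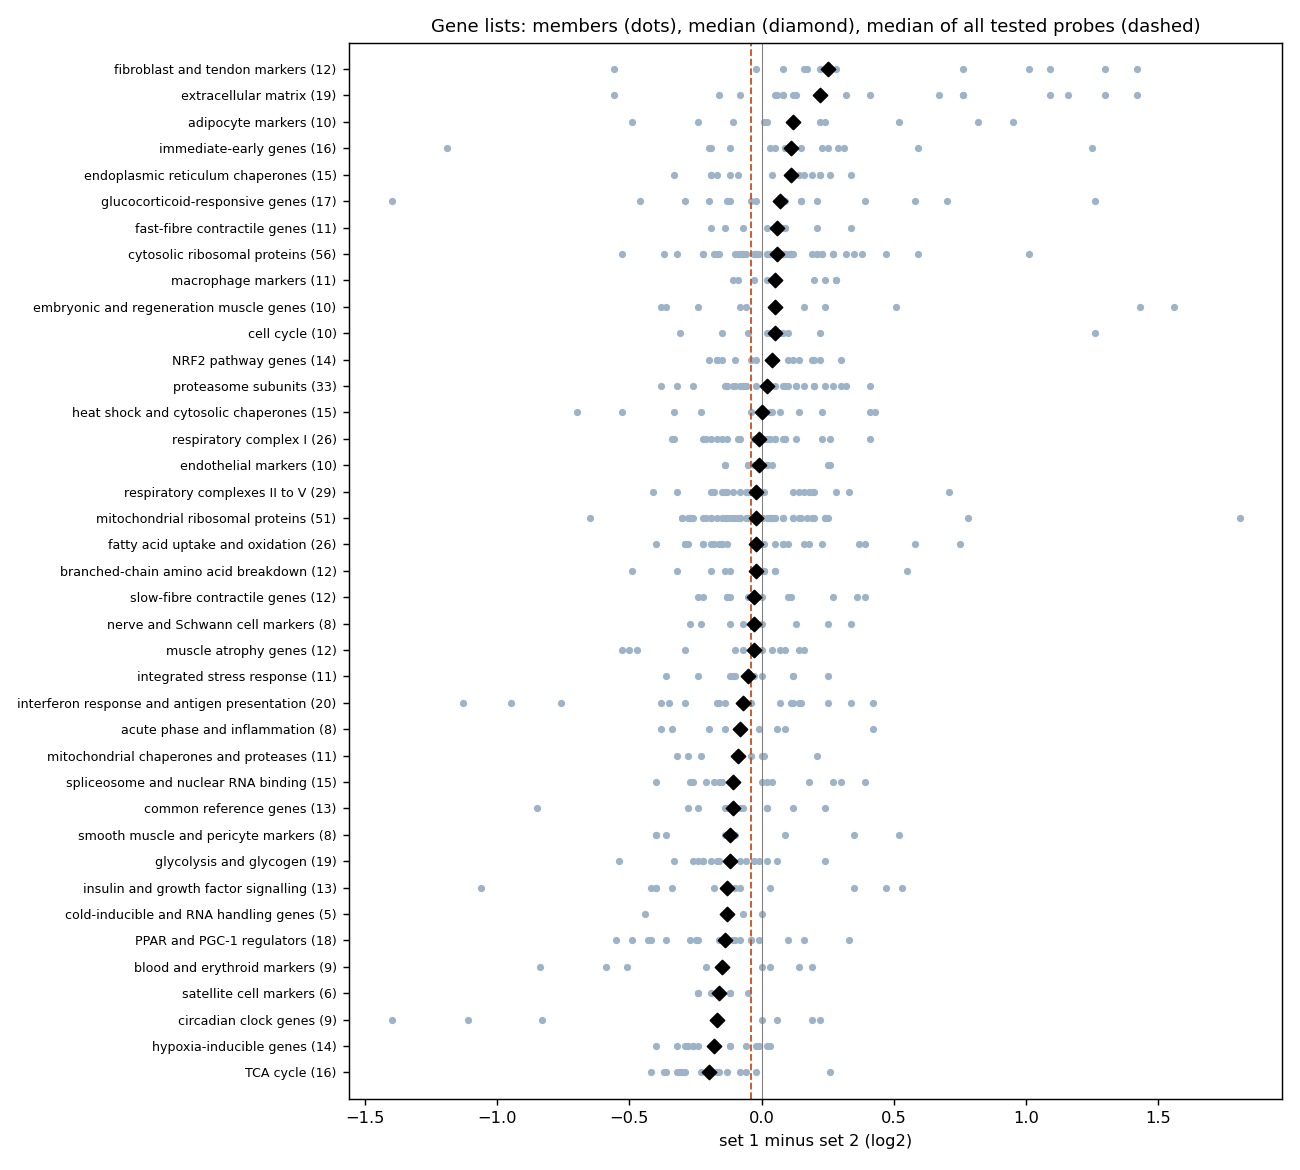
Set difference (set 1 minus set 2, log2) of the members of 39 gene lists with at least 5 measured genes, with the number measured in brackets. Dots are genes, diamonds are list medians and the dashed line is the median of all tested probes, -0.04. List medians run from -0.20 for the TCA cycle to 0.25 for fibroblast and tendon markers. With median scaling the fibroblast and tendon median is -0.01, beside -0.24 for all tested probes.

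Connective tissue genes had the highest medians, with wide spread between rats. Fibroblast and tendon markers had 10 of 12 members above 0 and a median of 0.25, and the extracellular matrix 16 of 19 and a median of 0.22, where 43.7% of all probes were above 0. The lists share members, and 0 matrix genes had an unadjusted p below 0.05, beside 21.2% of all probes. Col1a1, the main chain of type I collagen, was at 12.82 and 10.43 on the compound 177 arrays and 13.08 and 12.51 on the control arrays of set 1, against 11.75 and 9.46 and 11.83 and 10.10 in set 2. The sets overlapped, and the difference of 1.42 had an SE of 0.67 (adjusted p = 0.263 with limma).

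Lox, the enzyme that cross-links collagen, differed by 1.16 (SE 0.57), and Pi16, a marker of a fibroblast subtype, by 1.01 (SE 0.27). Col3a1, type III collagen, went the other way at -0.56 (SE 0.28). The summed level of the 12 fibroblast and tendon markers ran from 13.70 to 15.40 in set 1 and from 13.57 to 15.11 in set 2. Without the arrays numbered 2 the fibroblast median was 0.78, the matrix median 0.56, Col1a1 differed by 2.19 and Col3a1 by -0.29. With median scaling the fibroblast median was -0.01 and the matrix median -0.09, beside -0.24 for all tested probes. In bulk muscle, fewer cells of a type and less RNA per cell cannot be told apart.

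Of the clock genes, the Period genes had the largest differences. Per1 and Per2 are repressors of the daily clock, and Per1 also responds to glucocorticoids. Per1 was at 8.14 and 7.26 on the compound 177 arrays and 7.17 and 6.15 on the control arrays of set 1, against 7.77 and 8.82 and 9.21 and 8.52 in set 2. Per2 was at 9.24 and 8.86 on the compound 177 arrays and 8.56 and 7.63 on the control arrays of set 1, against 9.32 and 9.47 and 10.04 and 9.92 in set 2. The sets overlapped for Per1 and not for Per2, and neither passed (-1.40, adjusted p = 0.116, and -1.11, adjusted p = 0.109, both with limma). Tef, a clock output factor, differed by -0.83, while Dbp, a related factor, differed by 0.22 and Bmal1, the clock's activator, by 0.19. The 9 measured clock genes had a median of -0.17. At an unadjusted p below 0.05, 3 were lower and 0 higher, beside 12.3% and 8.93% of all probes. The median was -0.12 without the arrays numbered 2, where Per1 differed by -0.94, Per2 by -0.80 and Tef by -0.50, and Dbp and Bmal1 turned to -0.29 and -0.09.

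Immediate-early genes, which respond within minutes to stimuli and handling, had 12 of 16 members above 0 and a median of 0.11. Egr1 was at 9.06 and 10.52 on the compound 177 arrays and 8.70 and 8.89 on the control arrays of set 1, against 7.97 and 7.68 and 8.72 and 7.81 in set 2, a difference of 1.25 (SE 0.40, adjusted p = 0.127 with limma). Fos differed by 0.59 (SE 0.19). Nr4a3, an orphan nuclear receptor of the same class, went the other way at -1.19 (SE 0.34), with overlap between the sets for all 3. Glucocorticoid-responsive genes had a median of 0.07, with Pdk4 at 0.39 (SE 0.10), Zbtb16 at 0.70 (SE 0.24) and Fkbp5 at 0.09 (SE 0.22). Of the immediate-early genes 2 were higher and 1 lower at an unadjusted p below 0.05, beside 8.93% and 12.3% of all probes. Egr1 differed by 0.85, Nr4a3 by -1.47 and Fkbp5 by 0.03 without the arrays numbered 2, and the glucocorticoid median there was -0.06. With median scaling the medians of the immediate-early and glucocorticoid lists turned to -0.15 and -0.19, beside the shift of all probes to -0.24.

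Markers of the other cell types in muscle had medians nearer 0. Blood and erythroid markers had 6 of 9 members below 0 and a median of -0.15, with the globin Hbb at -0.59 (SE 0.24), Hbb-b1 at -0.84 and Hba-a1 at -0.51, and a summed level of 13.93 to 15.11 in set 1 and 14.55 to 15.04 in set 2. At an unadjusted p below 0.05, 2 were lower and 0 higher, beside 12.3% and 8.93% of all probes. The blood median was -0.01 without the arrays numbered 2, where Hbb differed by -0.27, Hbb-b1 by -0.52 and Hba-a1 by -0.12. Adipocyte markers had a median of 0.12, and 0.20 without these arrays. Thrsp, a regulator of lipid synthesis, averaged 9.06 ± 0.43 in set 1 and 8.11 ± 0.39 in set 2 (SD, n = 4 each, adjusted p = 0.0895 with limma), Scd, the stearoyl desaturase, differed by 0.82 (SE 0.49), Adipoq, adiponectin, by 0.24 (SE 0.39) and Pparg by -0.49 (SE 0.22). Leaving out the same arrays gave 0.75 for Adipoq and -0.20 for Pparg. Pparg was detected on 2 of 4 arrays of set 1, so its difference is uncertain.

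Satellite cell markers had 6 of 6 members below 0 and a median of -0.16, with Vcam1 at -0.19, Cxcr4 at -0.24 and Myf5 at -0.12. This median was -0.03 without the arrays numbered 2, the same as that of all probes there, with Vcam1 at -0.08, Cxcr4 at 0.03 and Myf5 at -0.32. Endothelial markers had a median of -0.01 and a summed level of 13.01 to 13.17 in set 1 and 12.99 to 13.16 in set 2. Chaperones of the endoplasmic reticulum had a median of 0.11, with Pdia6 at 0.34, Dnajc3 at 0.22 and the cochaperone Dnajb9 at -0.33 without overlap between the sets. Macrophage markers had a median of 0.05, fast-fibre genes 0.06 and proteasome subunits 0.02. The macrophage median was 0.46 without the arrays numbered 2. With median scaling the macrophage, fast-fibre and proteasome medians turned to -0.06, -0.45 and -0.27. The chaperones turned to -0.19 and the adipocyte markers to -0.18, where the median of all probes was -0.24.

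Detection itself set some genes apart. All 4 arrays of set 1 and 0 of set 2 detected 10 probes, 6 of them named, and all 4 arrays of set 2 and 0 of set 1 detected 91 probes, 58 of them named. Besides Tnni3, the group detected in set 1 held Bach2, a transcriptional repressor known from B cells, at least 1.30-fold higher in set 1, and Anxa8, an annexin, at least 1.28-fold higher. Of the set 2 group, Gsk3a, a kinase of glycogen synthase, averaged 5.11 in set 1 and 5.82 in set 2 and was at least 1.30-fold lower in set 1, and Atg5, an autophagy factor, was at least 1.22-fold lower. All of these but Tnni3 lay close to background, and they were named after their values were seen. Each passed the detection filter only through the set where it is high, so its lack of overlap is no support for a difference. Gsk3a and Atg5 had bounds near the top of their group, where other bounds were as low as 1.01-fold, as for Kitlg. The detection limit, higher in set 1, goes with the group detected in set 2 and runs against the group detected in set 1, and its part was not tested.

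The 2 diets gave the set difference on separate arrays. Among compound 177 rats, 0 of 10212 probes were called with limma (0%), with 1367 at an unadjusted p below 0.05 (13.4%), 640 higher in set 1 (6.27%) and 727 lower (7.12%), and a smallest adjusted p of 0.192. Among control rats 1 was called (0.00979%), with 1178 at an unadjusted p below 0.05 (11.5%), 476 higher in set 1 (4.66%) and 702 lower (6.87%). The called gene was Cdkn1a, the cell cycle inhibitor p21, which rose in set 1 among control rats by 2.82 (adjusted p = 0.0224 with limma). It was at 7.90 and 8.30 in the control rats of set 1 and at 5.09 and 5.46 in those of set 2. With the arrays numbered 2 left out, 0 probes were called among control rats.

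The set difference of a probe in compound 177 rats and that in control rats correlated at 0.52 across the 10212 probes (Spearman 0.48), with the same sign for 68.7%. The diet difference, compound 177 minus control, correlated between set 1 and set 2 at 0.14 (Spearman 0.11), with the same sign for 54.5%. Each pair of differences comes from separate rats, and the points share the joint normalization and the probes' levels. Without the arrays numbered 2 the correlations were 0.35 for the set difference and -0.05 for the diet difference. Leaving out the 31 tested probes of the lists of other tissues gave 0.49 and 0.13.

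**Figure D4:**
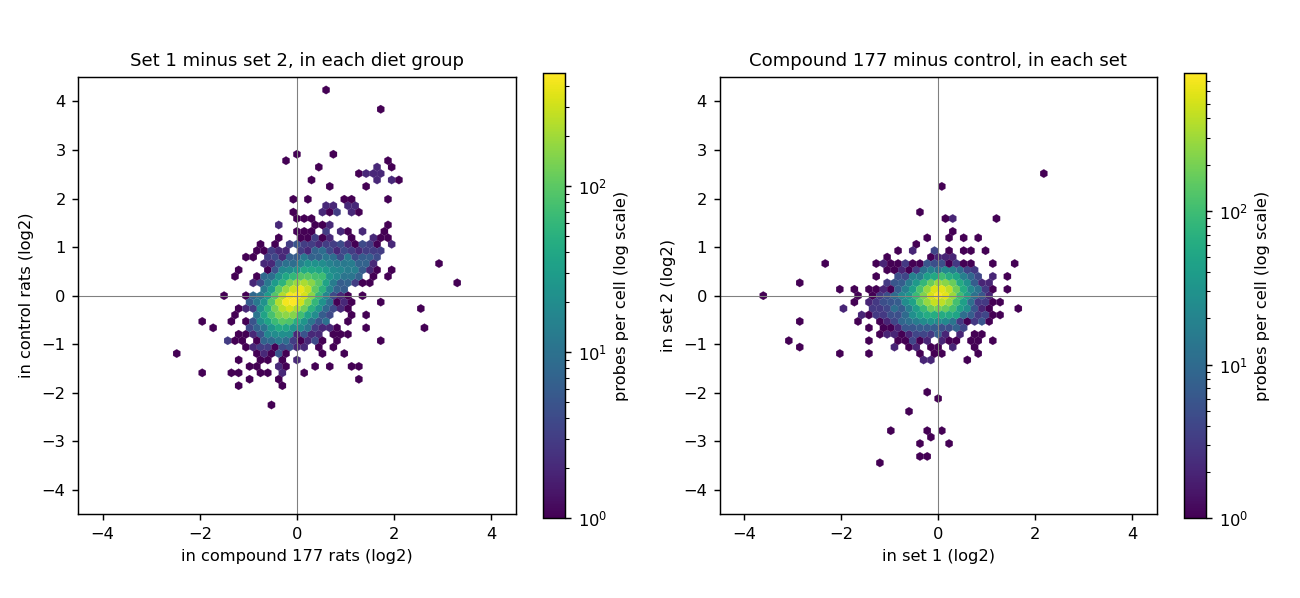
Left, set 1 minus set 2 for each of 10212 probes in compound 177 rats (horizontal) and in control rats (vertical), and right, compound 177 minus control in set 1 (horizontal) and in set 2 (vertical), all on the log2 scale. Colour gives the number of probes on a log scale. The left cloud is drawn out along the diagonal (r = 0.52), and the right one is nearly round (r = 0.14).

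Of the summed squares over all tested probes, the set took 29.2%, the diet 12.1% and the interaction of diet and set 9.19%, with 1 degree of freedom each, and rats within the same diet and set took 49.5%, or 12.4% for each of 4 degrees of freedom. The set thus exceeded the mean square between rats of the same diet and set, and the diet lay near it. Pairs of arrays correlated at a median of 0.977 within set 1, 0.988 within set 2 and 0.978 between the sets.

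The interaction asks whether the diet difference itself differs between set 1 and set 2. With limma, 0 probes were called (0%), the smallest adjusted p was 0.127, and 403 had an unadjusted p below 0.05 (3.95%), where 511 would be expected with no difference. The diet difference was higher in set 1 for 192 of these (1.88%) and lower for 211 (2.07%). The half-width of the 95% interval, before any adjustment, was 0.63 at the median probe, a 1.55-fold change. Differences smaller than that were mostly not detectable with 2 rats in each cell, and a call after adjustment needed more. Interactions of -3.12 for Cdkn1a and 3.00 for Mrpl18 were not called. With median scaling 1 probe was called.

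Cdkn1a had the smallest p. It was at 5.41 and 5.13 in the compound 177 rats and 7.90 and 8.30 in the control rats of set 1, against 5.70 and 5.43 in the compound 177 rats and 5.09 and 5.46 in the control rats of set 2. Both control rats of set 1 stood above the other 6 rats, and the diet difference was -2.83 in set 1 and 0.29 in set 2. Fbxo32, the muscle atrophy ubiquitin ligase atrogin-1, had diet differences of -1.34 in set 1 and 0.45 in set 2, and its interaction of -1.79 did not pass. It was at 7.36 and 7.25 in the compound 177 rats and 8.57 and 8.72 in the control rats of set 1, against 8.71 and 7.83 and 7.88 and 7.77 in set 2. The set 2 difference rests on 1 compound 177 rat at 8.71, with the others of that set at 7.77 to 7.88.

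Mrpl18, a protein of the large mitochondrial ribosomal subunit, was low in 2 rats only. It was at 12.55 and 11.65 in the compound 177 rats and 12.50 and 12.46 in the control rats of set 1, against 8.67 and 8.92 in the compound 177 rats and 12.60 and 11.75 in the control rats of set 2. The diet difference was -0.38 in set 1 and -3.38 in set 2, and the interaction of 3.00 did not pass (adjusted p = 1 with limma). The others named by the same rule were Cyp26b1, which breaks down retinoic acid (1.81), Atcay (1.34), Myh7b, a slow myosin heavy chain (1.17), Mill1 (1.16) and Esrrg, an estrogen-related receptor (1.15), and on the negative side Tppp3 (-1.47), Cbfb (-1.45), Ppp1r1c (-1.34) and Arid5a (-1.09), all at an adjusted p of 1.

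Slow-fibre genes had set differences of opposite sign in the diets. Their median set difference over 12 genes was 0.96 in compound 177 rats and -0.85 in control rats, and -0.03 over all 8. Myh7, the slow myosin heavy chain, was at 14.88 and 12.02 in the compound 177 rats and 12.74 and 14.92 in the control rats of set 1, against 11.45 and 12.08 and 14.66 and 14.92 in set 2. The compound 177 rat numbered 1 and the control rat numbered 1 were each unlike the other 3 of their diet.

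**Figure D5:**
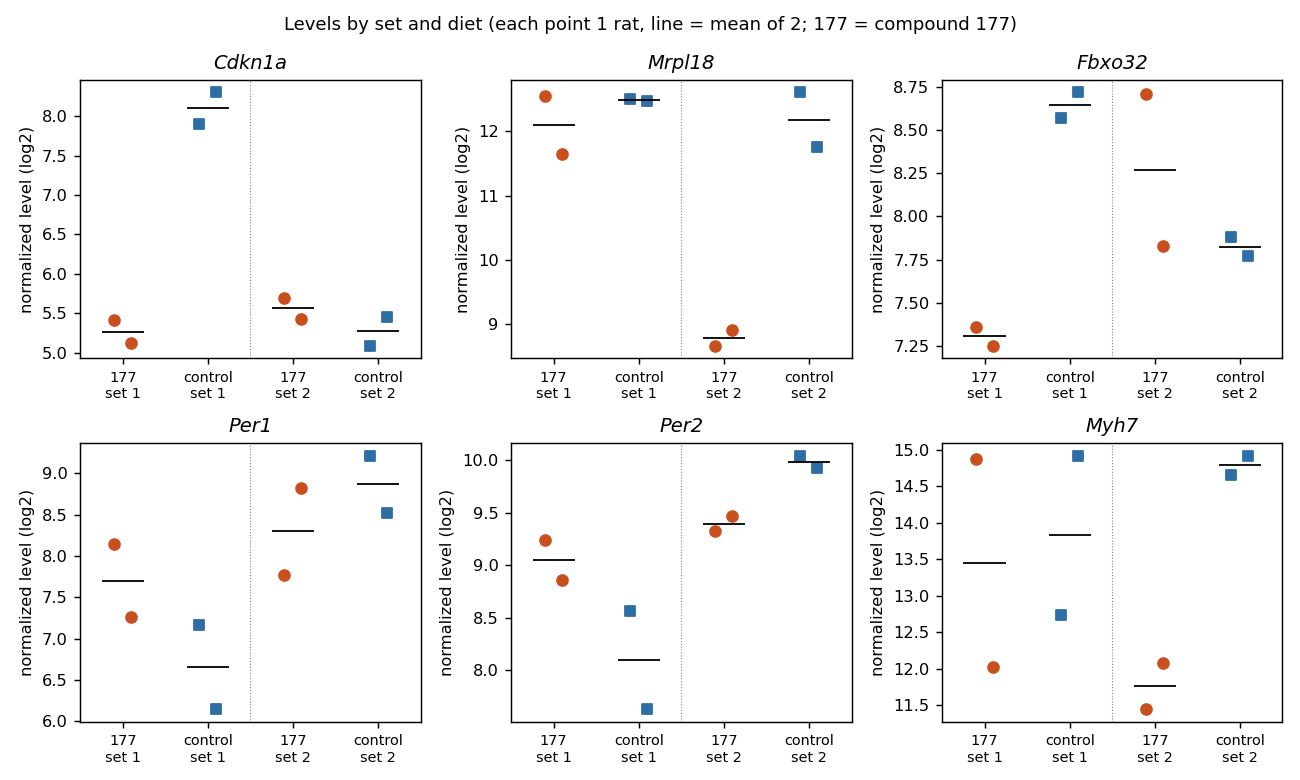
Normalized levels (log2) of 6 genes in the 4 cells of set and diet, with set 1 left of set 2 and compound 177 left of control within a set. Each point is 1 rat and each line the mean of 2. Cdkn1a is high in the 2 control rats of set 1 alone, Mrpl18 is low in the 2 compound 177 rats of set 2 alone, and Per1 and Per2 are lowest in the control rats of set 1.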

How the data were processed

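Muscle RNA of 8 rats was measured on Illumina rat bead arrays, 1 array a rat, from DNase-treated total RNA made into biotinylated cRNA, per the labels' protocols. The authors' deposited non-normalized table holds linear intensity values and a detection p-value for each of 22523 probes, the p in steps of 1 in 825, per the file headers. Their deposited normalized table, equal to the series' value table, holds linear intensity values. The sources used here name no software or background step.

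Intensities were background-corrected from the detection p-values, quantile-normalized over all 8 arrays and taken to log2 with neqc of limma 3.58.1 (R 4.3.3, offset 16). Probes with a detection p below 0.05 on at least 4 of 8 arrays were kept, 10212 in all. The platform annotation gave 13793 probes 1 symbol, 0 several and 8730 none, and 13752 matched a rat RefSeq gene with 0 symbols changed. Of the tested probes 7441 were named, for 7299 genes. Gene lists used the brightest probe of a gene.

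The set difference was fitted with lmFit and eBayes (set plus diet), and differences within a diet and the interaction in a fit of the 4 cells, with Benjamini-Hochberg adjustment over all tested probes. Array measures were compared by exact permutation. The code was tested on simulated data. A gene undetected on all arrays of a set has a bound only, from the lowest detected signal of each array. The design text gives 4 rats per diet, so p-values reflect the spread between rats.

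Deviations from the diet mean correlated at 0.24, 0.47, 0.12 and 0.42 between same-numbered arrays of the diets, which include the set difference. By the rule that all exceed 0.1 the numbers were taken as pairs, from the data and not from the labels. They were used as a random block (correlation 0.034), since each number lies in 1 set. The difference between the 2 arrays of a set is free of the set difference. It correlated between the diets at 0.32 in set 1 and 0.02 in set 2, so pairing was not seen in set 2.

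Members and gene lists were chosen with earlier results of these data known. Named genes are the 12 of smallest p in each direction, 3 of smallest p in each of the 6 lists of highest and 6 of lowest median, 6 of smallest interaction p in each direction, and a fixed set. Of that set Hspa1b did not pass the filter, and 4 genes have no named probe here. Alternatives were other background corrections and scalings, the authors' normalized values, other filters, array weights, no diet term, the replicate block and arrays left out.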

Additional observations from a re-analysis of the deposited data

Results flagged for a closer look

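Of 184 groups of 4 arrays examined, 13 held a value whose gap to its nearest neighbour as a share of the group's range exceeded Dixon's 95% critical value, and chance gives about 1 in 20. In set 1, Irf7 was at 5.93 on compound 177 array 1 (others 5.27 to 5.38), Pdk1 at 9.13 on control array 1 (others 9.56 to 9.62), and on compound 177 array 2 Col3a1 was at 9.54 (others 10.52 to 10.67), Vcam1 at 6.19 (others 6.54 to 6.58) and Mrpl18 at 11.65 (others 12.46 to 12.55). In set 2, Bmi1 was at 6.70 on compound 177 array 3 (others 6.28) and Fbxo32 at 8.71 there (others 7.77 to 7.88). Pi16 was at 7.25 on compound 177 array 4 (others 8.05 to 8.21). Slc30a2 was at 7.97 on control array 3 (others 7.45 to 7.50), Clcn3 at 6.66 there (others 6.92 to 6.97), and Pdk4 at 12.50 on control array 4 (others 12.26 to 12.30). Among the array measures of set 2, compound 177 array 4 detected 10141 probes (others 10557 to 10620) and control array 3 had a background spread of 17.8 (others 12.1 to 12.9).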

How the results depend on the processing

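Which probes were called depended on the processing, while the count at an unadjusted p below 0.05 stayed within 1.5 times of 2169 in all 18 alternatives. Calls higher and lower in set 1, against 3 and 2, were 12 and 10 with normexp, 12 and 12 with no background correction, 14 and 41 with median scaling, 13 and 9 from the authors' normalized values, 1 and 1 with detection on at least 1 array (440 at an adjusted p below 0.10), 6 and 11 with detection on all 8, 1 and 1 with array weights, and 111 and 86 with no diet term. With the replicate number as a random block they were 1 and 1, with 440 at an adjusted p below 0.10. Leaving out 1 array at a time gave 0 to 165 higher, 0 to 36 lower, 0 to 574 at an adjusted p below 0.10 and 1590 to 2291 at an unadjusted p below 0.05. The 165 and 36 came without control array 3. Without both arrays numbered 2 there were 0 higher, 0 lower, 0 at an adjusted p below 0.10 and 1502 at an unadjusted p below 0.05. Calls among control rats, 1 as reported, were 2 with no background correction, median scaling or the authors' values, 0 with detection on all 8 arrays or without both arrays numbered 2, and 0 to 2 with single arrays left out. Interaction calls were 1 with median scaling and 0 otherwise. The cause of these changes was not tested.

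Of 74 genes followed, 64 kept their sign in every alternative, as did 12 of 12 interaction genes and 9 of 15 list medians. Signs turned with median scaling for Dnajc3 (-0.05), Myh7 (-0.05), Myh4 (-0.06) and Fkbp5 (-0.19), where the median of all probes was -0.24. They turned without control array 1 for Adipoq (-0.06), without control array 2 for Fkbp5 (-0.05) and Bmal1 (0), and without control array 4 for Fkbp5 (-0.09) and Adipoq (-0.08). They turned without compound 177 array 1 for Myh7 (-0.47), without array 2 for Dbp (-0.16) and without array 3 for Myh7 (-0.03). With single arrays left out these genes ranged from -0.47 to 1.06 (Myh7), -0.16 to 0.43 (Dbp), 0 to 0.36 (Bmal1), -0.09 to 0.24 (Fkbp5) and -0.08 to 0.59 (Adipoq). Without both arrays numbered 2 they turned for Cxcr4 (0.03), Dbp (-0.29), Bmal1 (-0.09), Alb (-0.77) and Ahsg (-0.35). With 4 arrays a set, the median 95% interval had a half-width of 0.31, a 1.24-fold change, and probes near background are read less surely in set 1.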

Other observations

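Cytochrome P450 genes of the liver were among the hepatocyte markers, and most were highest on the arrays numbered 2. Cyp2c12 was at 5.20 and 8.93 on the compound 177 arrays and 5.11 and 11.56 on the control arrays of set 1, against 5.06 and 5.66 and 6.06 and 5.48 in set 2. Cyp2a2, detected on all 8 arrays, was at 5.66 and 6.90 on the compound 177 arrays and 5.75 and 8.81 on the control arrays of set 1, against 5.38 and 5.56 and 5.37 and 5.50 in set 2. Cyp2c11 and Cyp3a2 were detected on 0 of 8 arrays.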
